A study of Mus musculus with 23 samples.

Results

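DC2 cells were compared with DC1a cells from the spleens of untreated wild type BALB/c mice, in 4 of the 23 libraries of the series. The members are the 2 DC2 libraries, from cells that the labels describe as CD8lo and CD172hi, and the 2 DC1a libraries, from CD8hi CD172- cells, each from pools 1 and 2. All 4 carry the same strain, tissue and batch number in their labels, and no genetic change or agent is given for any of them. Cells enriched for CD11c were sorted after staining for CD11c, B220, MHC class II, CD8 and CD172 (SIRPα), and cDNA was amplified with a kit for small inputs before sequencing. The number of mice in a pool is not given in the sources used here, and age and sex are given there for other mice of the study and not for wild type BALB/c mice. DC1b libraries of the same pools entered the fit to estimate the spread, and 7 libraries of DC1a and DC2 cells from mice labelled TLI, an abbreviation that the labels do not expand, served as a second set in which the same difference was measured.

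Conventional dendritic cells take up antigen, carry it to T cells and fall into lineages that divide this work. Type 1 cells, to which CD8+ spleen dendritic cells belong, depend on the transcription factors IRF8 and BATF3, recognize actin exposed by dying cells through CLEC9A and present captured antigen on MHC class I to CD8+ T cells. Type 2 cells, marked by SIRPα, rely on IRF4, KLF4 and Notch signals, carry many lectins and Fc receptors and are known for priming CD4+ T cells. NF-κB and the immediate early genes are signalling programs that dendritic cells switch on when they sense microbes, cytokines or handling, and IκB proteins such as NFKBIA feed back on NF-κB.

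Total counts were between 19256447 and 28688091 in the 4 libraries, so 3 counts, taken as the floor of detection, lay between 0.118 and 0.144 CPM. CPM here are counts scaled to the library total after TMM, the factors with which edgeR matches libraries in their bulk of genes, and are compared between libraries and not between genes. Floors cover counting error only, since amplified reads are not independent molecules. Over 15785 genes tested, log2 CPM of the DC1a libraries correlated with each other at r = 0.882 and that of the DC2 libraries at r = 0.783, while a DC1a and a DC2 library correlated at r = 0.724 to 0.735. These correlations run across genes, which are not independent replicates. In bulk RNA, fewer cells of a type and less RNA per cell cannot be told apart.

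Of the genes tested, 157 were increased in DC2 cells (0.995% of all genes tested) and 125 were decreased (0.792%) at an adjusted p under 0.05, where p came from the quasi-likelihood test of edgeR and was adjusted after Benjamini and Hochberg over all genes tested (edgeR adjusted p from here on). Each of the 282 genes differed at least 2-fold, in the same direction, within pool 1 and within pool 2. That pattern was also common among genes that did not pass the test, since 2210 genes (14.0%) were at least 2-fold higher in DC2 cells in both pools and 2414 (15.3%) at least 2-fold lower. At an unadjusted p under 0.05 there were 1572 genes higher (9.96%) and 1493 lower (9.46%). The size of the called differences was unequal between the directions. Leaving out genes at the floor in either subset, the 139 increases had a median log2 fold change of 3.29 and reached 10.05, whereas the 118 decreases had a median drop of 1.87 on the log2 scale and reached a drop of 11.56. Neither library of a subset exceeded the floor for 25 of the 282 genes, 18 of them in DC1a and 7 in DC2 cells, and 233 genes had at least 10 counts in each of the 4 libraries.

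With the pool number as a replicate block, 0 genes passed edgeR's threshold and 2546 had an unadjusted p under 0.05. The block adjusted p of the 282 genes lay between 0.0717 and 0.122, and each of the 282 had an unadjusted block p under 0.05. Leaving out any of the 4 libraries also left 0 calls by edgeR, with 1764 to 3056 genes at an unadjusted p under 0.05. DESeq2's Wald test called 2419 genes, which included all 282. The split of the calls moved with the scaling, and with total counts in place of TMM there were 216 increases and 69 decreases. That scaling moved the median log2 fold change of all genes from 0.08 to 0.37, so a value near these is no change relative to the bulk of genes. P-values measure the spread between the libraries of these pools.

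**Figure D1:**
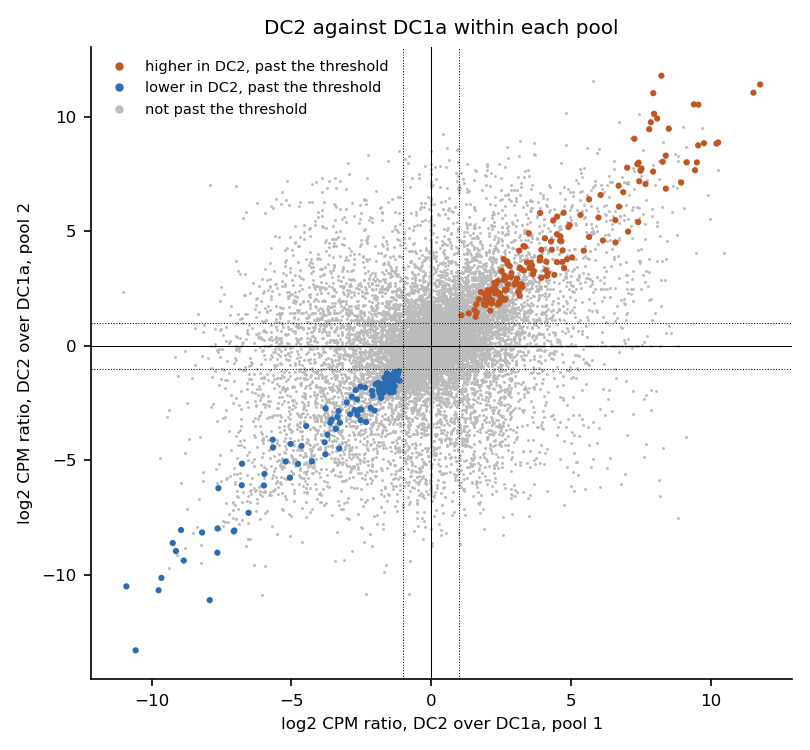
Each point is a gene, with the log2 CPM ratio of DC2 over DC1a cells in pool 1 on the horizontal axis and in pool 2 on the vertical axis (15685 genes with a symbol, prior count of 2). Dotted lines mark a 2-fold ratio. The 279 called genes (orange higher, blue lower in DC2 cells) lie outside the 2-fold lines in both pools, and many grey points that lie there did not pass the test.

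The genes of the sorting antibodies followed the gates, which is how the cells were chosen and not a finding. Cd8a had 541 and 522 CPM in the DC1a libraries and 0.590 and 0.385 CPM in the DC2 libraries. Sirpa had 0.201 and 0.313 CPM in DC1a and 244 and 181 CPM in DC2 cells. Both genes separated the subsets without overlap, so these 4 libraries matched their labels. Cd8b1, the partner chain of CD8α in CD8+ T cells, was low in DC1a cells too, at 0.322 and 3.44 CPM, and DC2 cells had 0 and 0.144 CPM. The genes of the gates that both subsets share were less far apart. Ptprc, which encodes CD45 and its B220 form, had 485 and 443 CPM in DC1a and 2006 and 2041 CPM in DC2 cells (edgeR adjusted p = 0.0295), and Itgax, which encodes CD11c, had 186 and 162 CPM in DC1a and 463 and 493 CPM in DC2 cells (edgeR adjusted p = 0.0519). The MHC class II genes H2-Aa, H2-Ab1 and H2-Eb1 had log2 fold changes of -0.49, -0.46 and 0.05, with edgeR adjusted p of 0.414, 0.257 and 0.906.

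Markers of other spleen cells were checked by their counts at the floor and their summed levels. Of 10 T cell markers 6 were at the floor in all 4 libraries, with Cd3g and Trbc1 at 0, as were 5 of 9 NK cell markers, with Klrb1c at 0, and 2 of 10 neutrophil markers, Camp and Retnlg, both at 0. Only 1 of 10 B cell markers and 1 of 6 plasma cell markers were at the floor in all 4. Summed over the list, T cell markers came to 2.82 and 1.92 CPM in DC1a and 24.9 and 0.433 CPM in DC2 cells. NK cell markers came to 6.77 and 6.44 CPM in DC1a and 98.0 and 50.7 CPM in DC2 cells, of which Klrd1, the 1 gene of that list called, made up 94.5 and 43.2 CPM. B cell markers came to 24.1 and 28.9 CPM in DC1a and 116 and 47.1 CPM in DC2 cells, plasma cell markers to 253 and 178 against 130 and 209 CPM and neutrophil markers to 3.75 and 0.179 against 2.20 and 60.7 CPM. The NK and B cell sums were higher in both DC2 libraries than in both DC1a libraries, and those of T cells, plasma cells and neutrophils were not. Plasmacytoid dendritic cell markers came to 110 and 189 CPM in DC1a and 111 and 124 CPM in DC2 cells. Red pulp and marginal zone macrophage markers, with Cd5l at 0 and Marco and Siglec1 at the floor, came to 111 and 118 CPM in DC1a and 201 and 331 CPM in DC2 cells. Monocyte markers were higher in DC2 cells, at 1030 and 1010 CPM in DC1a and 6260 and 5457 CPM in DC2 cells. Of 9 tested, from a list of 12, 2 were called, and 6 were higher (66.7%) and 0 lower at an unadjusted p under 0.05. Their log2 fold changes were positive in 7 and negative in 2. Lyz2, the lysozyme gene that monocytes and type 2 dendritic cells share, had 806 and 815 CPM in DC1a and 5201 and 4439 CPM in DC2 cells, and Ms4a6c had 82.9 and 80.8 against 691 and 619 CPM. Ly6c2, which defines classical monocytes, had 19.6 and 32.5 CPM in DC1a and 18.9 and 19.8 CPM in DC2 cells. The part of monocytes, macrophages, NK cells or B cells in any result was not tested. Erythroid markers were at 1763 and 2201 CPM in pool 1 of DC1a and DC2 cells and at 152 and 68.3 CPM in pool 2, so they were high in pool 1 of both subsets, while DC1b had 66.0 and 103 CPM in pools 1 and 2.

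The called genes with at least 10 counts in each of the 4 libraries and a mean of at least 20 CPM numbered 230, of which 122 were increased and 108 decreased in DC2 cells. The 15 largest increases among them were led by Mmp12, the macrophage elastase gene on chromosome 9 from 7344381 to 7369499 of GRCm38. It had 1.13 and 0.447 CPM in the DC1a libraries and 904 and 782 CPM in the DC2 libraries. The DC2 values were alike and 1070-fold above DC1a in their means (log2 fold change 10.05 ± 0.65 SE, edgeR adjusted p = 0.0173). S100a4, which encodes a calcium-binding protein of motile cells, had 4.67 and 14.7 CPM in DC1a and 798 and 622 CPM in DC2 cells. Cd209a, a lectin gene of the DC-SIGN family, had 9.35 and 19.4 CPM in DC1a and 899 and 869 CPM in DC2 cells. Both genes were high in each DC2 library, by 73.4-fold and 61.6-fold in the means. Cybb encodes the catalytic subunit of the phagocyte NADPH oxidase and had 3.02 and 10.9 CPM in DC1a and 405 and 348 CPM in DC2 cells (log2 fold change 5.76 ± 0.69 SE, edgeR adjusted p = 0.0322).

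Receptor genes were among the rest of the 15. Lair1, an inhibitory collagen receptor, rose from 1.05 and 3.00 to 108 and 70.1 CPM, and Cd300lf, an inhibitory receptor for lipids, from 2.82 and 5.01 to 144 and 137 CPM. The adhesion G protein-coupled receptor genes Adgre4 and Adgrl3 rose 81.1-fold and 219-fold, and Clec4a2, an inhibitory C-type lectin gene, rose 30.1-fold. Txnip, an inhibitor of thioredoxin, rose from 3.59 and 2.42 to 97.0 and 140 CPM. Ifi203, an interferon-inducible DNA sensor gene, rose 41.3-fold and Ms4a4c 45.4-fold. Carmil1, which regulates actin capping, rose 69.5-fold, Tespa1, an adaptor gene known from thymocytes, 36.2-fold and the predicted gene Gm9733 87.2-fold. In none of the 15 did the lowest DC2 library fall to the level of the highest DC1a library. The choice of called genes with the largest folds favours such a separation, so it adds no evidence. Exons of Adgrl3, S100a4, Ms4a4c, Ifi203 and Txnip overlap those of other annotated genes, and the library kit does not mark strand, so reads of the partners cannot be told apart and these levels are uncertain.

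Clec9a, the receptor for exposed actin, led the 15 largest decreases. It lies on chromosome 6 from 129408862 to 129424763 and had 671 and 630 CPM in DC1a and 1.02 and 1.54 CPM in DC2 cells (log2 fold change -8.99 ± 0.35 SE, edgeR adjusted p = 0.0111). Tlr3, the endosomal receptor for double-stranded RNA, had 140 and 186 CPM in DC1a and 2.16 and 3.80 CPM in DC2 cells, and Xcr1, the receptor for the chemokine XCL1, had 549 and 465 against 16.8 and 23.9 CPM. The lowest DC1a library of each gene was far above the highest DC2 library, and the means differed 507-fold, 54.7-fold and 24.9-fold. Cxcl9, a chemokine that draws CXCR3+ T cells, had 499 and 520 CPM in DC1a and 18.3 and 14.6 CPM in DC2 cells, a difference of 31.0-fold (edgeR adjusted p = 0.0184).

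The rest of the 15 decreases encode proteins of different kinds. Naaa, a lysosomal amidase of lipid mediators, fell from 963 and 796 to 4.84 and 10.7 CPM. Ppt1, a lysosomal thioesterase gene, fell from 2827 and 2762 to 55.8 and 127 CPM, and Laptm4b, which encodes a lysosomal membrane protein, from 91.9 and 134 to 6.57 and 4.96 CPM. The protease inhibitor gene Serpinb6b, with 223 and 305 CPM in DC1a and 1.97 and 8.57 CPM in DC2 cells, was 50.2-fold lower, and Gpr171, a G protein-coupled receptor gene, was 34.9-fold lower. Ncoa7, a nuclear receptor coactivator gene, was 41.0-fold lower, Klhl6 25.1-fold, Arhgap22, which acts on Rac, 23.4-fold, Cystm1 26.6-fold and 2310031A07Rik 83.4-fold. The 15th decrease was an identifier without a symbol, with 50.2 and 67.8 CPM in DC1a and 3.23 and 3.37 CPM in DC2 cells. Exons of Clec9a, 2310031A07Rik, Ncoa7, Ppt1 and Arhgap22 overlap those of other genes. Across all 30 genes the edgeR adjusted p lay between 0.0111 and 0.0423. The smallest gap between the subsets, lowest high library over highest low library, was 14.0-fold, which the ranking by fold change favours.

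**Figure D2:**
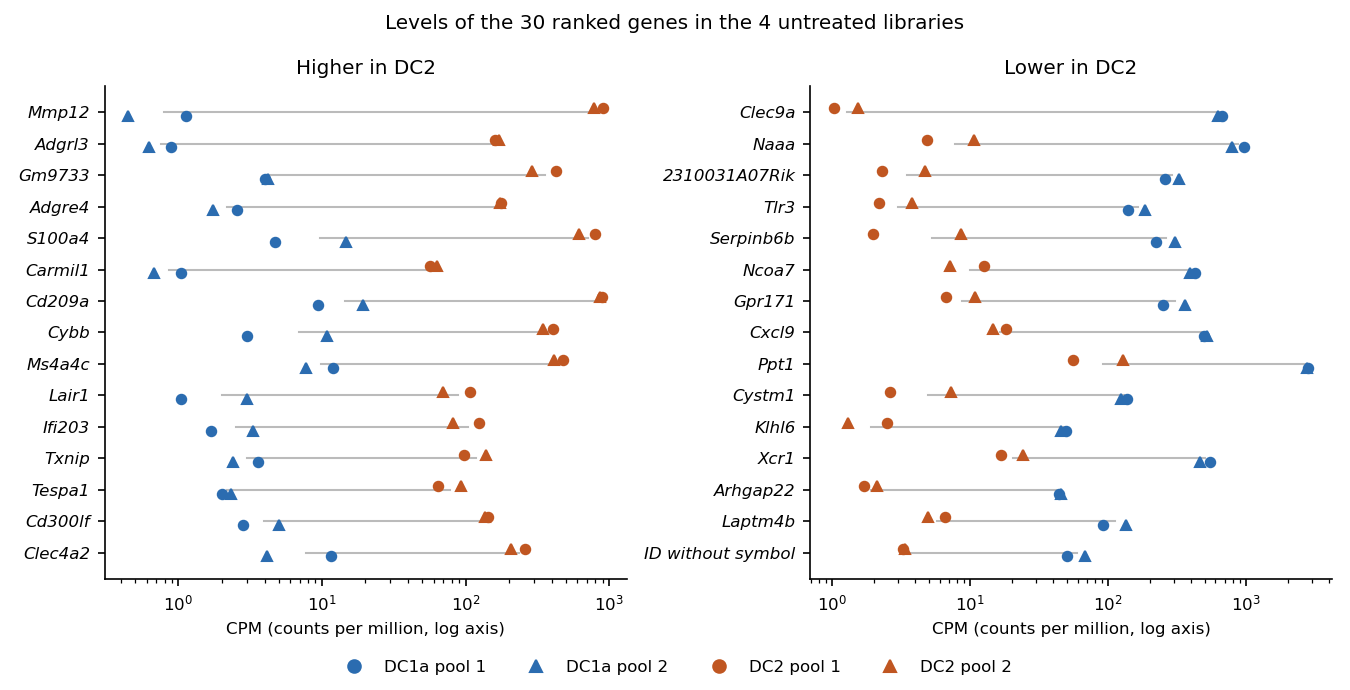
CPM on a log axis of the 15 largest increases (left) and the 15 largest decreases (right) in DC2 against DC1a cells, in order of fitted fold change. Circles are pool 1 and triangles pool 2, blue is DC1a and orange DC2, and grey lines join the group means. The gap between the subsets is at least 14.0-fold for each gene, and wider than the distance between the 2 libraries of a subset, in genes chosen for large fold changes.

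Most genes known from type 1 and type 2 dendritic cells parted in opposite directions. Of 30 type 1 genes tested, 12 were decreased and 0 increased in DC2 cells by edgeR, beside 0.792% and 0.995% of all genes. At an unadjusted p under 0.05, 25 were lower (83.3%, against 9.46% of all genes) and 0 higher (against 9.96%). The median log2 fold change was -3.53, against 0.08 over all genes. Besides Clec9a, Tlr3, Xcr1, Naaa, Cd8a and the transcription factor gene Id2, the 12 held Cd207, which encodes langerin and had 963 and 827 CPM in DC1a and 0.551 and 0 CPM in DC2 cells. Gcsam, a signalling adaptor gene known from germinal centers, had 310 and 398 against 0.0787 and 0.193 CPM. Btla, Ifi205, Cd36 and Plpp1 were also decreased, by 6.84-fold for the inhibitory receptor BTLA, 9.95-fold for Ifi205 and 4.39-fold for the scavenger receptor CD36. The list was drawn up with earlier results of these data known, and Cd8a was part of the gate.

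Of 28 type 2 genes tested, from a list of 30, 9 were increased and 0 decreased, with a median log2 fold change of 4.32. At an unadjusted p under 0.05, 20 were higher (71.4%, against 9.96% of all genes) and 1 lower (3.57%, against 9.46%). A negative log2 fold change was found in 4 of the 28. DESeq2 called 21 higher and 1 lower. Clec7a, the β-glucan receptor Dectin-1, had 20.6 and 30.1 CPM in DC1a and 242 and 371 CPM in DC2 cells. Klf4 had 32.7 and 36.2 against 205 and 195 CPM, and Dtx1, a target of Notch, had 0.121 and 0.313 against 99.2 and 55.2 CPM. Both Clec7a libraries of DC2 cells were above both of DC1a, as were those of Klf4 and Dtx1, which the choice of called genes favours. Clec4a4, Clec4a2, Cd209a, Ms4a4c, S100a4 and Sirpa completed the 9, of which Clec4a4 had no count in DC1a cells and was at least 2011-fold higher in DC2 cells.

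Of 38 transcription factors of dendritic cell lineages tested, 2 were increased and 2 decreased, beside 0.995% and 0.792% of all genes tested. At an unadjusted p under 0.05, 15 were higher (39.5%, against 9.96% of all genes) and 4 lower (10.5%, against 9.46%). The median log2 fold change was 0.98. DESeq2 called 14 higher and 4 lower, where it called 1299 and 1120 of all genes tested. Id2, the inhibitor of E proteins that type 1 cells need, had 3450 and 2991 CPM in DC1a and 584 and 437 CPM in DC2 cells, a fall of 6.30-fold (log2 fold change -2.65 ± 0.22 SE, edgeR adjusted p = 0.0184). Cebpb, a myeloid factor gene that overlaps Tmem189, had 3.99 and 3.89 against 80.3 and 72.7 CPM. Myb had 24.3 and 23.4 CPM in DC1a cells and 0 in DC2 cells, at least 182-fold lower, and overlaps another gene. Of the best known regulators, named here after their values were seen, Irf8, Irf4 and Zeb2 differed in the pools by unequal amounts. Irf8 had 664 and 548 CPM in DC1a and 1.57 and 32.8 CPM in DC2 cells, with the DC2 libraries far apart from each other, and missed the threshold (edgeR adjusted p = 0.130). Irf4 had 7.81 and 7.34 against 33.8 and 155 CPM (edgeR adjusted p = 0.0871), and Zeb2 had 0.846 and 5.46 against 203 and 75.7 CPM (edgeR adjusted p = 0.0743). Batf3 had 351 and 282 against 163 and 129 CPM (edgeR adjusted p = 0.0981).

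**Figure D3:**
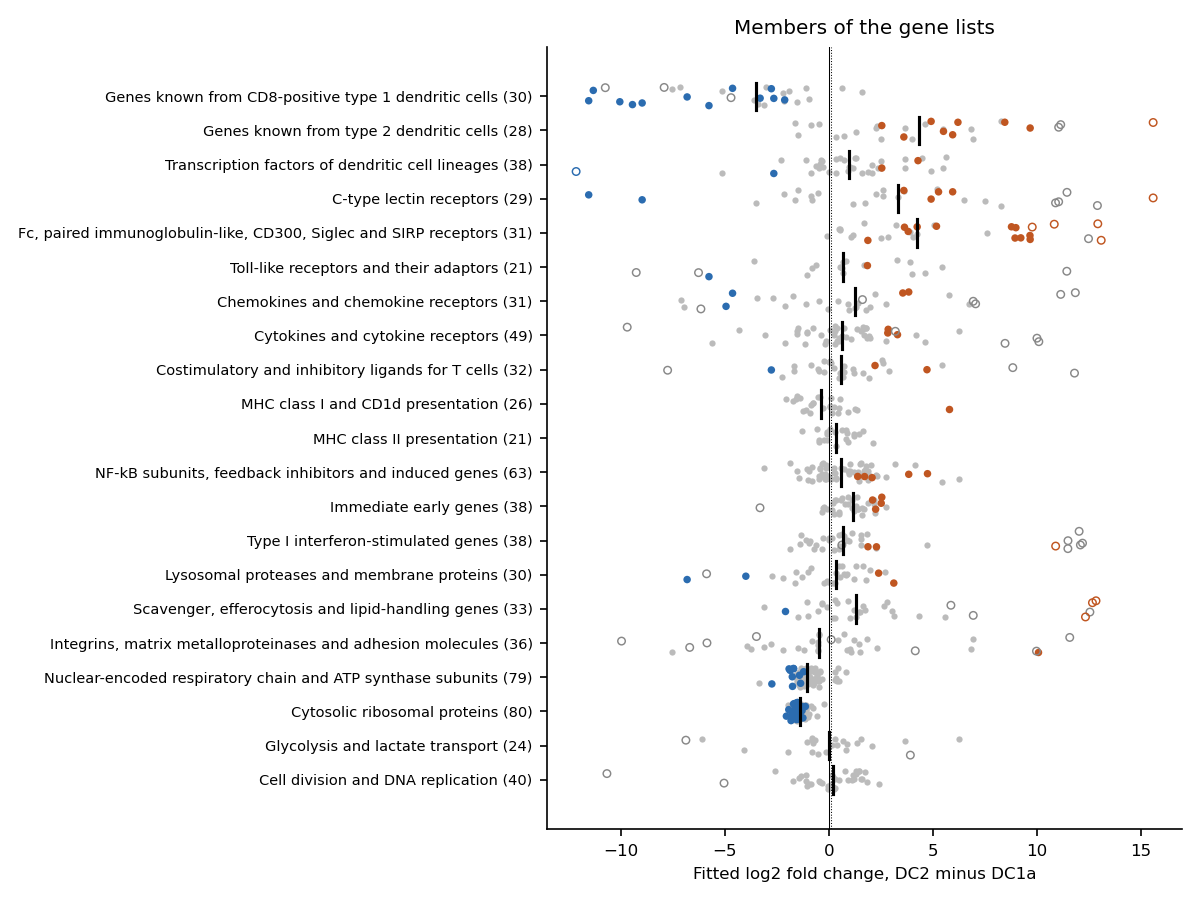
Fitted log2 fold changes, DC2 minus DC1a cells, of the tested members of 21 gene lists, with the number tested in parentheses. Orange and blue points passed the edgeR threshold as higher or lower, grey points did not, open circles are genes at the floor in a subset, whose fitted value is no measure of size, and black bars are medians. The type 1 list has its median at -3.53 and the receptor list of Fc, paired, CD300, Siglec and SIRP genes at 4.23, while the dotted line marks 0.08 for all genes.

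The list with the most increases held immunoglobulin-like receptors many of which signal through tyrosine-based motifs. Of 31 Fc, paired immunoglobulin-like, CD300, Siglec and SIRP receptor genes tested, from a list of 36, 15 were increased in DC2 cells and 0 decreased. At an unadjusted p under 0.05, 26 were higher (83.9%, against 9.96% of all genes). A positive log2 fold change was found in 30 of 31, with a median of 4.23, or 2.52 in the 17 genes with at least 10 counts in every library. Fcer1g, the common γ chain through which activating Fc receptors signal, had 136 and 116 CPM in DC1a and 1989 and 1532 CPM in DC2 cells. Pirb, an inhibitory receptor for MHC class I, had 16.1 and 10.2 against 143 and 182 CPM, and Siglecg, an inhibitory receptor for sialic acid, had 16.3 and 31.8 against 470 and 436 CPM. These genes were expressed above the floor in both subsets and their libraries did not overlap, which the choice of called genes favours. The fold differences were 14.0 for Fcer1g (log2 fold change 3.81 ± 0.30 SE, edgeR adjusted p = 0.0184), 12.4 for Pirb and 18.9 for Siglecg. Cd300c2 was the smallest of the 15, at 128 and 140 CPM in DC1a and 473 and 504 CPM in DC2 cells, 3.65-fold. The SIRPβ genes Sirpb1a, Sirpb1b and Sirpb1c rose from 1.65, 0.685 and 1.01 CPM or less in the DC1a libraries to at least 432, 172 and 294 CPM in the DC2 libraries, and reads can be split between these near-identical neighbours. Pilrb2, an activating paired receptor gene that overlaps another gene, had 0.161 and 0.0447 against 87.5 and 90.8 CPM. Lilra5, Pilrb1, Trem3 and Cd300lb were at the floor in DC1a cells, so they rose by at least 356-fold, 318-fold, 74.4-fold and 35.7-fold. Sirpa, Cd300lf and Cd300ld made up the rest, and Sirpa was set by the gate.

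C-type lectins moved in both directions. Of 29 tested, 5 were increased (Clec7a, Clec4a2, Clec4a4, Cd209a and Cd209c) and 2 decreased (Clec9a and Cd207), with a median log2 fold change of 3.33. Shares at an unadjusted p under 0.05 were 58.6% higher and 17.2% lower, against 9.96% and 9.46% of all genes. With at least 10 counts required in every library 16 lectins were left, with a median of 0.29. Cd209c, a neighbour of Cd209a, had 0.483 and 0.358 CPM in DC1a and 16.8 and 15.98 CPM in DC2 cells. Among 21 Toll-like receptor genes and adaptors the median was 0.66, Tlr3 was decreased and Cd180, a relative of TLR4 known from B cells, was increased from 111 and 110 to 412 and 382 CPM (log2 fold change 1.85 ± 0.21 SE, edgeR adjusted p = 0.0295). Cd180 overlaps Mast4. Tlr7, a sensor of single-stranded RNA, and Tlr11, a sensor of profilin, were looked at after their values were seen. Tlr7 had 0.282 and 6.58 against 118 and 49.4 CPM (edgeR adjusted p = 0.166) and Tlr11 had 171 and 132 against 2.99 and 21.6 CPM (edgeR adjusted p = 0.145).

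Among 31 chemokines and chemokine receptors tested, from a list of 39, 2 were increased and 2 decreased. Of these 31, 35.5% were higher and 22.6% lower at an unadjusted p under 0.05, against 9.96% and 9.46% of all genes. The median log2 fold change was 1.26, or 0.98 with genes at the floor set to their bound. That median was 0 without the DC2 library of pool 1, 0.69 without that of pool 2 and 0.74 without the DC1a library of pool 1. Ccl3, an inflammatory chemokine gene, had 86.6 and 86.1 CPM in DC1a and 1280 and 1179 CPM in DC2 cells, and Gpr183, the oxysterol receptor that positions type 2 cells in the spleen, had 31.4 and 44.3 against 382 and 503 CPM. The difference was 14.2-fold for Ccl3 (log2 fold change 3.83 ± 0.25 SE, edgeR adjusted p = 0.0173) and 11.7-fold for Gpr183 (edgeR adjusted p = 0.0184). Cxcl9 and Xcr1 were the decreases. Ccr7, the receptor for homing to T cell zones, looked at after its values were seen, had 482 and 483 CPM in DC1a and 474 and 464 CPM in DC2 cells, and the difference was within its error (log2 fold change -0.04 ± 0.36 SE).

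Of 49 cytokines and cytokine receptors tested, 3 were increased and 0 decreased by edgeR, beside 0.995% and 0.792% of all genes. At an unadjusted p under 0.05, 14 were higher (28.6%, against 9.96% of all genes) and 4 lower (8.16%, against 9.46%). The median log2 fold change was 0.63, which was 0.39 without the DC2 library of pool 2. Il2rg, the γ chain shared by receptors of several interleukins, had 99.1 and 119 CPM in DC1a and 979 and 1155 CPM in DC2 cells. Tgfbr1, a receptor for TGF-β, had 18.4 and 17.7 against 118 and 138 CPM, and Ltb, which encodes lymphotoxin β, had 52.3 and 31.1 against 299 and 300 CPM. The 3 genes rose 9.79-fold, 7.09-fold and 7.18-fold, with edgeR adjusted p of 0.0240, 0.0248 and 0.0346. Il2rg overlaps another gene. Il1b, named after its values were seen, had 1623 and 2127 CPM in DC1a and 5463 and 7477 CPM in DC2 cells and missed the threshold (log2 fold change 1.79 ± 0.35 SE, edgeR adjusted p = 0.0728).

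Ligands and receptors that face T cells showed 2 increases and 1 decrease among 32 tested. Of these 32, 25% were higher and 9.38% lower at an unadjusted p under 0.05, against 9.96% and 9.46% of all genes. The median log2 fold change was 0.58, which was 0.23 and 0.36 without the DC2 library of pool 1 and of pool 2. Cd274, which encodes the inhibitory ligand PD-L1, had 53.1 and 37.8 CPM in DC1a and 223 and 198 CPM in DC2 cells, 4.63-fold higher (edgeR adjusted p = 0.0383). Cd244a, a receptor of the SLAM family, had 8.82 and 9.08 against 218 and 251 CPM, 26.2-fold higher. Btla was the decrease. The costimulatory genes Cd86 and Cd80, added after their values were seen, had 485 and 462 against 700 and 881 CPM and 32.7 and 50.1 against 177 and 139 CPM. Both DC2 libraries were above both DC1a libraries for each gene, and neither passed the test (edgeR adjusted p = 0.135 and 0.0664).

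No gene of antigen presentation on MHC class II passed edgeR's test. Of 21 tested, 0 were called by edgeR and 4 by DESeq2, all higher, 4 were higher and 2 lower at an unadjusted edgeR p under 0.05, and the median log2 fold change was 0.32, or 0.14 without the DC2 library of pool 1. Cd74, the invariant chain, had 29527 and 27939 CPM in DC1a and 33652 and 35645 CPM in DC2 cells. In the list of 26 genes of MHC class I and CD1d presentation, edgeR called 1 increase, Cybb, and 0 decreases. DESeq2 called 1 higher and 7 lower, and edgeR 1 higher and 6 lower with at least 10 counts in every library. At an unadjusted edgeR p under 0.05, 8 were lower (30.8%, against 9.46% of all genes) and 1 higher (3.85%, against 9.96%). The median log2 fold change was -0.37. Without a single library that median lay between -0.58, without the DC2 library of pool 2, and -0.17, without the DC2 or the DC1a library of pool 1. The immunoproteasome genes Psmb8 and Psmb9, named after their values were seen, had 1972 and 1694 against 732 and 494 CPM and 966 and 927 against 283 and 368 CPM, with edgeR adjusted p of 0.0963 and 0.0508. Both overlap neighbouring genes.

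Lysosomal genes were mixed, with 2 increases and 2 decreases among 30. Of these 30, 26.7% were higher and 20% lower at an unadjusted p under 0.05, against 9.96% and 9.46% of all genes. The median log2 fold change was 0.32, which was 0.05 without the DC2 library and 0.17 without the DC1a library of pool 2. Cst3, which encodes the cathepsin inhibitor cystatin C, had 57682 and 60585 CPM in DC1a and 4104 and 3280 CPM in DC2 cells. The DC2 libraries lay far below both DC1a libraries, 16.02-fold in the means (log2 fold change -4.00 ± 0.21 SE, edgeR adjusted p = 0.0173). Naaa was the other decrease. Tpp1, a tripeptidyl peptidase gene, rose from 5.28 and 5.01 to 26.7 and 27.0 CPM, and Ctsa, which encodes cathepsin A, from 40.1 and 20.6 to 242 and 284 CPM. Ctsa overlaps Pltp, so their reads cannot be told apart. The median of 33 scavenger, efferocytosis and lipid-handling genes was 1.31, or 1.22 with genes at the floor set to their bound. It was 0.33 in the 18 genes with at least 10 counts in every library. Of the 33, 30.3% were higher and 9.09% lower at an unadjusted p under 0.05. Msr1, Apoc2 and Pltp were at the floor in DC1a cells and rose by at least 266-fold, 211-fold and 300-fold, and Cd36 was decreased.

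Genes of NF-κB signalling and immediate early genes were among the increases in DC2 cells. Of 63 NF-κB subunits, feedback inhibitors and induced genes tested, 5 were increased and 0 decreased, beside 0.995% and 0.792% of all genes. At an unadjusted p under 0.05, 27 were higher (42.9%, against 9.96% of all genes) and 3 lower (4.76%, against 9.46%). The median log2 fold change was 0.59. Of 38 immediate early genes, 4 were increased and 0 decreased, 21 were higher (55.3%) and 0 lower at that p, and the median was 1.16. The promoters of 3 of the called genes are shown because these genes are classical targets of the factors named. They were picked for holding a match, and of the other called members with an entry in the table, Ccl3 had no NF-κB match, and Nr4a1, Klf4 and Fosl2 had no cAMP response element, while Fosl2 had 2 NF-κB matches. The sequences are the 250 bases upstream of the start site in RefSeq on GRCm38.p6, read 5′ to 3′ on the strand of the gene. Capitals mark matches to the NF-κB consensus in Nfkbia, at chr12:55492648-55492897 on the minus strand, and in Nfkbid, at chr7:30422156-30422405 on the plus strand, and the cAMP response element TGACGTCA in Dusp1, at chr17:26508473-26508722 on the minus strand.
Nfkbia: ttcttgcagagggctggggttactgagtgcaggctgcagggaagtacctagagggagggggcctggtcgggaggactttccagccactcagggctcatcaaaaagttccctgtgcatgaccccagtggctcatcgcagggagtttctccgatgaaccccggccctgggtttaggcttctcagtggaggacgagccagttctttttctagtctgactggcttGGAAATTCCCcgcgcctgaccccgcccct
Nfkbid: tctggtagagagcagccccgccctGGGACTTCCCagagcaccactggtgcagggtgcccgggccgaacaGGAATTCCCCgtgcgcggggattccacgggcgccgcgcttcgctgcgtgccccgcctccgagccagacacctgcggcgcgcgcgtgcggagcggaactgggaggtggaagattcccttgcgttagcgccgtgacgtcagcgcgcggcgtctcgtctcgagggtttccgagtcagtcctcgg
Dusp1: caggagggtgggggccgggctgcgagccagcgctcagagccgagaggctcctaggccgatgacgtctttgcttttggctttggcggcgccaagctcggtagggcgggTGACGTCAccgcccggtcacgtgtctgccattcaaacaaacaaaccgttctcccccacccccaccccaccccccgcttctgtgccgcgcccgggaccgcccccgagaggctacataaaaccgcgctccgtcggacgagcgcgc
Nfkbia held 1 match, which began 29 bases before the start site, Nfkbid held 2 matches in this promoter, the richest of its 3 in the table, and Dusp1 held 1 match to its motif. The motifs were searched on both strands, and the matches in Nfkbid did not overlap each other. A promoter of Nfkbid also held 1 cAMP response element, in lower case here, since capitals mark NF-κB matches in it. Nfkb1 and Ripk2 had no entry in the table.

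Matches stood in promoters of genes that changed in either direction. An NF-κB match stood in the 250 bases of 7 of 120 increased genes (5.83%) and 7 of 97 decreased genes (7.22%) that matched the table by symbol, against 5.34% of 9969 tested genes and 4.46% of all 27025 symbols. The cAMP response element stood in 2 of the 120 and 4 of the 97, against 3.02% of tested genes and 1.77% of all symbols. The composite element of ETS factors and IRF4 or IRF8, spelled GGAA, then 2 bases of any kind, then GAAA, stood in 5 of the 120 and 1 of the 97, against 2.51% of tested genes and 2.68% of all symbols. These counts describe letters in a window and not binding.

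The feedback inhibitors themselves differed by modest amounts. Nfkbia had 447 and 464 CPM in DC1a and 1128 and 1238 CPM in DC2 cells, 2.60-fold higher (log2 fold change 1.38 ± 0.17 SE, edgeR adjusted p = 0.0344). Nfkbid, a nuclear IκB gene, had 57.4 and 84.2 against 300 and 295 CPM, and Nfkb1, the p105 precursor of p50, had 96.0 and 85.8 against 293 and 301 CPM. The DC2 libraries were within a few percent of each other for both and above both DC1a libraries. Ripk2, a kinase downstream of NOD receptors, had 5.48 and 2.06 against 82.1 and 119 CPM, and Ccl3 was the remaining call. Among immediate early genes, Dusp1, a phosphatase of MAP kinases, had 363 and 407 against 1466 and 2171 CPM. Nr4a1, a nuclear receptor gene, had 215 and 228 against 821 and 1068 CPM. Fosl2, a partner of JUN, had 27.9 and 26.6 against 138 and 172 CPM. These 3 genes were 4.72-fold, 4.27-fold and 5.69-fold higher in DC2 cells, and Klf4 was the remaining call. Dusp1 overlaps Ergic1. Rel, an NF-κB subunit named after its values were seen, had 407 and 395 against 1038 and 1237 CPM and missed the threshold (edgeR adjusted p = 0.0624).

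The remaining lists differed in how far they stood from all genes, of which 9.96% were higher and 9.46% lower at an unadjusted p under 0.05. At that p, 31.6% of interferon-stimulated genes were higher and 7.89% lower, and 25% and 22.2% of adhesion genes. The shares were 7.5% and 2.5% for cell division and 12.5% and 16.7% for glycolysis. Of 38 type I interferon-stimulated genes tested, 3 were increased and 0 decreased by edgeR, 12 were higher and 3 lower at an unadjusted p under 0.05, and the median log2 fold change was 0.67. Ifitm3 had 414 and 296 CPM in DC1a and 1993 and 1460 CPM in DC2 cells, Ifi27l2a had 179 and 156 against 689 and 537 CPM, and Rtp4, with 3 and 0 counts in DC1a cells, was at least 1016-fold higher. In the list of 36 integrins, matrix metalloproteinases and adhesion molecules, Mmp12 was increased and 0 were decreased by edgeR, 9 were higher and 8 lower at an unadjusted p under 0.05, and the median of -0.47 was 0.49 in the fit of 23 libraries, 0 and 0.44 without the DC1a library of pool 1 and of pool 2 and -0.13 without the DC2 library of pool 1. Of 40 cell division genes, 0 were called by edgeR and 4 by DESeq2, with 3 higher and 1 lower at an unadjusted edgeR p under 0.05 and a median of 0.18, which was 0.41 and -0.03 without the DC1a library of pool 1 and of pool 2 and 0.11 and -0.05 without the DC2 library of pool 1 and of pool 2. Of 24 genes of glycolysis and lactate transport, 0 were called by edgeR and 5 by DESeq2, with 3 higher and 4 lower at an unadjusted edgeR p under 0.05 and a median of -0.01, or 0.29 with total counts, -0.03 and 0.06 without the DC1a library of pool 1 and of pool 2, and -0.13 and -0.86 without the DC2 library of pool 1 and of pool 2. Pcna had 215 and 206 CPM in DC1a and 372 and 542 CPM in DC2 cells, and Ldha had 392 and 277 against 165 and 214 CPM, with edgeR adjusted p of 0.142 and 0.214.

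Genes of ribosomes and of the respiratory chain were among the decreases in DC2 cells. Each of 80 cytosolic ribosomal protein genes had a negative log2 fold change and 26 were decreased. At an unadjusted p under 0.05, 79 were lower (98.75%, against 9.46% of all genes). The median was -1.41, with -1.39 in pool 1 and -1.48 in pool 2. Rpsa, a protein of the small subunit, had 2094 and 1616 CPM in DC1a and 481 and 414 CPM in DC2 cells, 4.15-fold lower (edgeR adjusted p = 0.0288). Of 79 nuclear-encoded subunits of the respiratory chain and ATP synthase, 10 were decreased and 0 increased, 58 were lower at that p (73.4%), and the median was -1.04. Atpif1, the inhibitor of ATP synthase, had 2541 and 2587 against 503 and 258 CPM, 6.73-fold lower, and Cycs, which encodes cytochrome c, had 946 and 947 against 280 and 280 CPM, 3.38-fold lower. With total counts in place of TMM, 6 ribosomal and 5 respiratory genes were called, with medians of -1.12 and -0.75 beside 0.37 for all genes. Rpsa and Atpif1 overlap other genes, ribosomal protein genes have many near-identical processed pseudogenes, and how reads were split among these copies cannot be seen from the counts.

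The genes of both lists had short transcripts in the median, and the difference between the subsets moved with transcript length. The median exonic length was 1754 bases for ribosomal and 1718 for respiratory genes. It was 2271 bases for genes decreased in DC2 cells, 3787 for genes increased and 3581 for genes not called. Among 5361 protein-coding genes with a mean of at least 20 CPM, cut into quintiles by length, the median log2 fold change was -0.50 in the shortest quintile, then 0.04, 0.27, 0.39 and 0.56 in the longest. The shortest quintile held 51 ribosomal and 54 respiratory genes and had a median of -0.38 without them. Called decreases went down with length, at 59, 29, 17, 4 and 3 from the shortest quintile to the longest. Called increases did not follow that order, at 35, 24, 21, 26 and 28. Across these genes Spearman's rho between length and log2 fold change was 0.29, and 0.25 in the TLI libraries, given as a description since genes share the libraries. The part of transcript length in the lower values of ribosomal and respiratory genes was not tested, and neither was that of RNA quality, for which the files hold no measure.

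**Figure D4:**
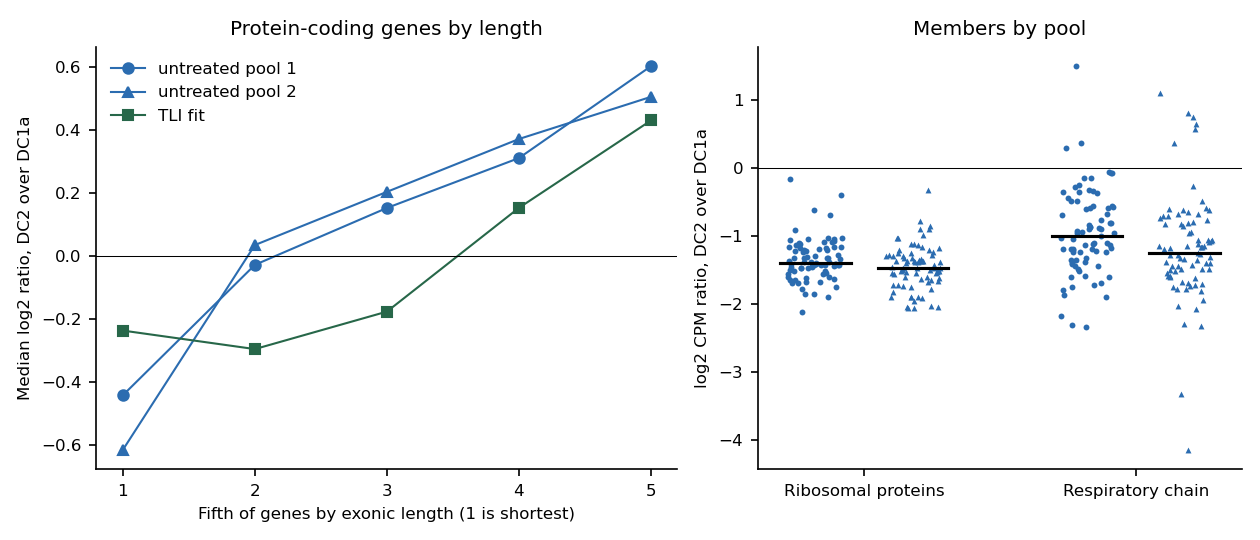
Left, the median log2 ratio of DC2 over DC1a cells in length quintiles of 5361 protein-coding genes, for untreated pools 1 and 2 (log2 CPM ratio) and the TLI fit (fitted log2 fold change). Right, log2 CPM ratios of ribosomal and respiratory genes in pool 1 (circles) and pool 2 (triangles), with medians as bars. In both untreated pools the medians go from below 0 in the shortest quintile to above 0 in the longest, and the ribosomal genes lie below 0 in both pools.

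Genes outside the lists are named here from the called genes alone, after their values were seen, so they are single genes and no count of a group. Fgr, a kinase of the SRC family, had 7.82 and 10.02 CPM in DC1a and 198 and 239 CPM in DC2 cells, and Syk, the kinase that binds activating motifs, had 19.7 and 31.8 against 176 and 145 CPM. Malt1, which links such receptors to NF-κB, had 18.2 and 31.2 against 167 and 325 CPM. Pik3cd, Ptpn6, Fyb and Stap1 rose 6.55-fold, 4.18-fold, 8.88-fold and 7.40-fold. Exons of Ptpn6 and Fyb overlap those of other genes, as do those of Lcp1 and Prdx2.

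Some of the genes so chosen bind or regulate actin. Lcp1, which bundles actin, had 223 and 256 CPM in DC1a and 1239 and 1147 CPM in DC2 cells, Msn, which ties actin to the membrane, rose 5.18-fold, and Dock10, Elmo1, Myo1f and Macf1 rose 4.20-fold, 6.17-fold, 3.96-fold and 7.34-fold. The genes of the actin-binding thymosins were lower in DC2 cells. Tmsb4x had 69060 and 89340 CPM in DC1a and 26010 and 25460 CPM in DC2 cells, 3.08-fold lower, and Tmsb10 had 1113 and 957 against 137 and 173 CPM. Txn1, which encodes thioredoxin, had 1583 and 1469 against 273 and 156 CPM, and the peroxiredoxin genes Prdx1 and Prdx2 fell 3.73-fold and 4.93-fold. Pomp, Psma7 and Psmb6, of the proteasome and its assembly, fell 3.22-fold, 2.61-fold and 2.50-fold. Aif1 had 1562 and 1886 against 159 and 84.5 CPM, and Mpeg1, a pore-forming protein of phagosomes, had 819 and 830 against 36.8 and 73.5 CPM. Crip1 fell 7.66-fold.

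The same difference in mice labelled TLI was measured in 4 DC1a libraries and 3 DC2 libraries that the comparison above did not use. Markers of other cells were unequal among them. The erythroid gene Hba-a1 was at 40294, 7832 and 14644 CPM in the batch 1 libraries (DC1a pools 1 and 2, DC2 pool 1). In batch 2 it ranged from 46.8 to 561 CPM. Spic and Hmox1, known from macrophages, stood at 819 and 332 CPM in DC2 pool 1. DC2 pools 3 and 4 had at most 90.6 and 0.671 CPM. Klrd1 was lower in DC2 pool 1, at 61.5 against 142 and 126 CPM. Of the gate genes, Sirpa was uneven in DC2 pools 1, 3 and 4, at 32.1, 8.21 and 264 CPM, and had at most 0.76 CPM in the DC1a libraries. Cd8a had at least 353 CPM in the DC1a and at most 0.929 CPM in the DC2 libraries. The part of other cells in the TLI values was not tested. In a fit of 11 TLI libraries with a term for the batch number of the labels, 447 of 15708 genes (2.85%) passed edgeR's threshold, and 242 with the pool as a block. Of the 281 untreated calls that were tested there, 270 (96.1%) had the same direction, while over all genes tested in both sets the direction was the same for 9234 of 14337 (64.4%). The 11 genes that differed in direction included none past the threshold. Past the threshold in the same direction were 115 of the 281 (40.9%), made up of 84 of 156 increases and 31 of 125 decreases. Within batch 1, which has 1 DC2 library and 2 DC1a libraries, 250 of the 281 (89.0%) had the same direction, against 59.3% of all 14337 genes, and within batch 2, with 2 of each, 266 (94.7%), against 63.2%. All 30 ranked genes had the same direction and 21 passed the threshold in TLI mice, 11 increases and 10 decreases.

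The lists had medians of unequal size in TLI mice. Median log2 fold changes were -4.71 for type 1 genes, 4.70 for type 2 genes and 4.17 for the immunoglobulin-like receptors, of which 17, 13 and 19 passed the threshold. The median was -0.55 for ribosomal and -0.28 for respiratory genes, with 3 and 1 past the threshold, and 0.09 for NF-κB genes and 0.44 for immediate early genes, with 5 higher and 1 lower and 2 higher past it, against -0.04 over all genes. Nfkbid, Dusp1 and Nr4a1 had log2 fold changes of -0.44, 0.33 and 0.75 there, and Txnip had 0.18, none past the threshold. Whether these values differed between TLI and untreated mice was tested gene by gene, and 5 of 19597 genes (0.0255%) passed, of which Clec9a, Cd180 and Gstp2 were among the untreated calls. Ribosomal and respiratory genes also differed between the TLI batches within DC1a cells. Rpl32 had 1276 and 1124 CPM in batch 1 and 3816 and 4447 CPM in batch 2, and Atp5e had 255 and 201 against 965 and 1023 CPM. Rps6 differed less, with 1215 and 1177 against 1855 and 1600 CPM. The cause was not tested.

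**Figure D5:**
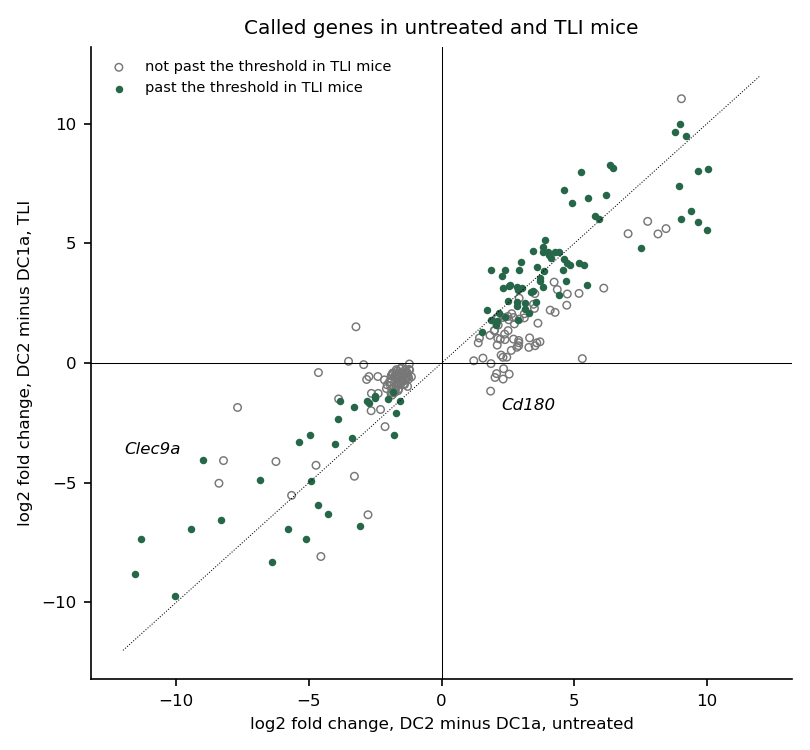
Fitted log2 fold change, DC2 minus DC1a, in untreated mice (horizontal) and in TLI mice (vertical) for 254 genes with a symbol called in untreated mice and above the floor in both subsets. Filled points, 101 of them, also passed the threshold in TLI mice, and the dotted line marks equal values. Clec9a lies above that line and Cd180 on the other side of 0.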

How the data were processed

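Reads of 23 libraries were trimmed, aligned to GRCm38 and assembled with Trimmomatic, HISAT2 and StringTie by the authors, who deposited estimated counts per gene as whole numbers that are not scaled for depth or length. The test was planned for plain read counts, and was run on these values without a change. Strand use in the counting is not given in the sources used here. Symbols and positions came from the annotation for 47224 of 47729 identifiers.

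Genes that passed filterByExpr were fitted with TMM factors and the quasi-likelihood test in edgeR 4.0.16 (R 4.3.3). The main comparison used 6 untreated libraries (DC1a, DC1b and DC2), with an adjusted p threshold of 0.05. DC2 minus DC1a was also fitted in 11 TLI libraries, and the change of that difference from untreated to TLI mice in 23 libraries, both with a batch term. Code was tested on simulated data. DESeq2 1.42.0, other size factors, filters, sets of libraries and a pool block were alternatives, and scaling by total counts was added after seeing the data. The pool number marks shared pools in the labels, while the deviations of same-pool DC1a and DC2 libraries from their group means correlated at 0.0146. Ranked genes were the 15 largest fitted changes in each direction among called genes with at least 10 counts in each of the 4 libraries and a mean of at least 20 CPM. Members of lists were named where called, and further genes were named after their values were seen. The members and lists were chosen with earlier results of these data known. Ratios within pools used a prior count of 2. Promoter sequences came from RefSeq.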

Additional observations from a re-analysis of the deposited data

Results flagged for a closer look

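The difference between DC2 and DC1a cells was not the same in TLI as in untreated mice for 3 of the genes called in untreated mice, by the interaction of subset and treatment in edgeR over 23 libraries with a batch term. The Clec9a log2 difference, DC2 minus DC1a, was less negative by 4.85 in TLI mice (edgeR adjusted p = 0.000161). TLI libraries had 369, 385, 665 and 664 CPM in DC1a and 34.0, 24.2 and 35.2 CPM in DC2 cells, against 671 and 630 CPM and 1.02 and 1.54 CPM in untreated mice. DC1a values overlapped, and each TLI DC2 library was above both untreated DC2 libraries. Here and below, CPM of TLI and of untreated libraries were scaled in separate fits, so their levels compare only roughly. This call held in 16 of 16 alternatives, with differences from 4.58 to 5.17.

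Cd180 had a difference of -3.12 log2 units between TLI and untreated mice (edgeR adjusted p = 0.00387). TLI libraries had 95.3, 99.2, 75.3 and 70.8 CPM in DC1a and 47.9, 28.7 and 32.3 CPM in DC2 cells, so the subsets lay in the opposite order from untreated mice, with 111 and 110 CPM in DC1a and 412 and 382 CPM in DC2 cells. The call was lost without a filter on low counts (edgeR adjusted p = 0.103) and without the untreated DC1a library of pool 1 or pool 2 (edgeR adjusted p = 0.127 and 0.135), and held in 13 of 16 alternatives.

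Gstp2 had 46.6 and 41.1 CPM in DC1a and 0 in DC2 cells of untreated mice, but 20.6 to 33.4 CPM in DC1a and 27.1 to 41.4 CPM in DC2 cells of TLI mice. The fitted difference of 13.75 log2 units rests on libraries without a count and is no measure of size. Gstp1, its near-identical neighbour, had 255 and 234 CPM in DC1a and 169 and 105 CPM in DC2 cells of untreated mice, and how reads were split between the copies cannot be seen from the counts.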

How the results depend on the processing

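The 282 untreated calls (157 higher, 125 lower) came to 0 higher and 0 lower with the pool as a replicate block and 0 without any 1 of the 4 libraries. By DESeq2 there were 2419 (1299 higher, 1120 lower), without a count filter 564 (306 and 258), and with at least 10 counts in every library 843 (416 and 427). The 4 libraries alone gave 192 (78 lower), 8 untreated libraries 445 (235 lower), all 23 libraries 375 (205 lower), total-count scaling 285 (69 lower) and RLE factors 276. In TLI mice the 447 calls became 2085 by DESeq2, 242 with the block and 254 to 320 without single libraries, falling by over 1.5 times without the DC1a library of pool 1, 3 or 4 (269, 254 and 269) or the DC2 library of pool 1 (283). The 5 interaction calls became 550 by DESeq2, 11 without a filter, 2 with at least 10 counts, 3 with the block and 2 to 20 without single libraries, with 20 without the TLI DC2 library of pool 1 and 2 and 3 without the untreated DC1a library of pool 1 and pool 2. Of 221 genes followed through these alternatives, 0 changed direction in a called value. The cause of these shifts was not tested. Libraries of 2 pools and 3 counts as the floor limit what can be called.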
